A study of Mus musculus with 13 samples.

Results

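Expression of 8 transcription factor genes was examined in brain-resident myeloid cells of PS2APP mice with and without Trem2. They were Bhlhe40 and Bhlhe41, the MiT/TFE family genes Mitf, Tfeb, Tfe3 and Tfec, and Pparg and Ppard of the PPAR family of nuclear receptors. The 8 genes were chosen by name for what the factors do, not by a threshold on measured values, and were read from tables of 52636 genes. Earlier results of these data were known when the genes were chosen. RNA-Seq was performed on cells of 13 mice, each a separate replicate, at 14 to 15 months of age. Of these, 7 were PS2APP;Trem2wt, with 5 females, and 6 were PS2APP;Trem2ko, also with 5 females. All 13 mice carried the PS2APP transgenes, human presenilin 2 and amyloid precursor protein genes with familial Alzheimer's disease mutations, so that β-amyloid plaques were present in both groups and no animal without plaques was in the comparison. PS2APP;Trem2ko mice were in addition homozygous for the Trem2 tm1(KOMP)Vlcg null allele, which was made in C57BL/6N and crossed into the C57BL/6J line, and lacked Trem2 in all cells rather than in microglia alone. Cells were sorted by FACS from cortex and hippocampus as CD11b+CD45+Ccr2-Ly6g-, a gate that holds microglia and a few perivascular macrophages.

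Bhlhe40 (also called Dec1) and Bhlhe41 (Dec2) are closely related basic helix-loop-helix repressors that act in the circadian clock, in hypoxia and in immune cells, and they restrain the macrophage factor Maf in resident macrophages. The MiT/TFE proteins are basic helix-loop-helix leucine zipper activators that pair with one another. Nutrient signalling through mTORC1 and folliculin holds them in the cytoplasm, and once in the nucleus they switch on lysosome and autophagy genes, and in osteoclasts the genes of bone resorption. PPARγ and PPARδ sense fatty acids, pair with RXR receptors and control genes of lipid uptake, storage and oxidation.

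Among the 8 genes, Bhlhe40 fell 5.98-fold in PS2APP;Trem2ko cells, and no other member passed the test. Its paralog Bhlhe41 differed between genotypes by less than the spread between mice, and so did Tfeb and Tfe3. Mitf was 1.25-fold higher on average, with an adjusted p of 0.346 in edgeR's quasi-likelihood test over all genes. Tfec was close to the limit of detection in most mice. Pparg was low, with 3 to 19 counts per PS2APP;Trem2wt mouse and 0 to 208 counts per PS2APP;Trem2ko mouse.

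The deposited values were counts of reads per gene and nRPKM, reads scaled to gene length and library size, so that levels of different genes can be set side by side. Counts summed to between 26120961 and 120569609 per mouse. The genotypes were compared with edgeR's quasi-likelihood test on the counts of 17086 genes that passed a filter on low counts, and a gene was called at a Benjamini-Hochberg adjusted p of 0.05 or less over all of them. Trem2 itself went from 1044 ± 141 nRPKM (SD, n = 7) with the wild-type gene to 0.887 ± 0.734 nRPKM (SD, n = 6) in the knockout. All 12 microglia markers had counts in every mouse, and their nRPKM values summed to between 14170 and 17189 in PS2APP;Trem2wt and between 14537 and 16427 in PS2APP;Trem2ko mice. Of the 12, 1 was called, the chemokine receptor gene Cx3cr1, lower at 1088 ± 127 (SD, n = 6) against 1526 ± 144 (SD, n = 7) nRPKM (log2 fold change -0.49, adjusted p = 0.0067 in edgeR). In such pooled cells, fewer cells that express a gene and less RNA per cell cannot be told apart.

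The E-box CACGTG is a core sequence bound by Bhlhe40, Bhlhe41 and the MiT/TFE factors, and MiT/TFE sites often extend it to TCACGTG. RefSeq promoter windows (GRCm38.p6, 250 bases before to 50 after a transcript start) were read for 7 of the 8 members, all but Bhlhe40, in 14 windows. Both motifs were searched on both strands, and the longer one contains the shorter. CACGTG was in 7.15% and TCACGTG in 3.76% of all 32815 windows. Of the 14 windows 1 held CACGTG, that of Bhlhe41, and the same site also reads TCACGTG on the opposite strand. Of the 15 genes of the pathway lists described further on that were called, 8 had a window. CACGTG was found for 1 of these, the immediate early gene Egr2, in 1 of its windows and not in the others. A gene can have more than 1 window, so this count per gene is not comparable with the share of all windows. The 250 bases before the start are shown for Bhlhe41 and Egr2 because they were the ones with a match, with the E-box in capitals. Bhlhe41 is shown for chr6:145865421-145865670 on the minus strand, with the first base of the motif 153 bases before the start, and Egr2 for chr10:67535249-67535498 on the plus strand, with that base 27 bases before the start of 1 of its transcripts.
Bhlhe41: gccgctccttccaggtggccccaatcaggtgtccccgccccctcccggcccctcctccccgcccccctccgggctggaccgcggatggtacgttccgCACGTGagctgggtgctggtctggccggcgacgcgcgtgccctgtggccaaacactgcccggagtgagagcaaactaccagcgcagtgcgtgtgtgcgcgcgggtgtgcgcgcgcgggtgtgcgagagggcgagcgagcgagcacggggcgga
Egr2: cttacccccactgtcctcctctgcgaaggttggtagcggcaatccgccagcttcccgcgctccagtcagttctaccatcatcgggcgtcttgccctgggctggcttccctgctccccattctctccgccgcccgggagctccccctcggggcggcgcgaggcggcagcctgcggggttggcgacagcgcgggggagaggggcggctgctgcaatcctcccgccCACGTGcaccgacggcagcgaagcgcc
The Bhlhe41 sequence was 73.6% G and C, against a median of 52.4% over all windows. A match is a description of these letters only, and no binding was measured in these samples.

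Bhlhe40 (ENSMUSG00000030103, chromosome 6, 108660629 to 108666925 on the plus strand) had nRPKM values of 12.3, 15.6, 23.4, 10.5, 13.5, 8.16 and 11.1 in the 7 PS2APP;Trem2wt mice. In the 6 PS2APP;Trem2ko mice they were 1.91, 2.99, 3.91, 2.29, 1.06 and 1.5. The genotypes were fully apart, and the lowest PS2APP;Trem2wt mouse was 2.09 times the highest PS2APP;Trem2ko mouse. The means were 13.5 ± 4.94 (SD, n = 7) and 2.28 ± 1.04 (SD, n = 6) nRPKM, resting on 1114 to 7637 reads per PS2APP;Trem2wt mouse and 304 to 1080 reads per PS2APP;Trem2ko mouse. The log2 fold change was -2.58 (SE 0.30, 95% interval -3.21 to -1.95, adjusted p = 0.00014 in edgeR), a 3.86- to 9.25-fold decrease. Of all tested genes 1.53% were called lower, 0.503% higher, and 1.62% had nRPKM ranges that did not overlap, against 1, 0 and 1 of the 7 tested members. Bhlhe40 was 29th of the 17086 genes by p and 44th by the lowest log2 fold change. The median log2 fold change was 0.04 over the 7 tested members and 0.004 over all tested genes.

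Within each genotype Bhlhe40 varied more from mouse to mouse than its paralog, with a coefficient of variation of 36.6% in PS2APP;Trem2wt and 45.6% in PS2APP;Trem2ko mice, against 16.3% and 17.4% for Bhlhe41. PS2APP;Trem2wt replicate 3 had the highest level, and without it the log2 fold change was -2.39 (adjusted p = 0.000168 in edgeR). Females of the groups were apart as well. They had 13.6 ± 5.84 (SD, n = 5) nRPKM with Trem2 and 2.52 ± 0.952 (SD, n = 5) without, the 2 PS2APP;Trem2wt males had 15.6 and 11.1, and the 1 PS2APP;Trem2ko male, at 1.06, was the lowest of all 13 mice. In females alone the log2 fold change was -2.44 (adjusted p = 0.00202 in edgeR).

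Myeloid cells other than microglia also express Bhlhe40, so markers of other myeloid cells were measured in the same mice. The sort was set to remove Ccr2+ monocytes and Ly6g+ neutrophils, and to keep perivascular macrophages. The 10 markers of border macrophages, which include perivascular macrophages, summed to between 14.7 and 42.5 nRPKM in PS2APP;Trem2wt and between 25.2 and 61.1 nRPKM in PS2APP;Trem2ko mice, and none of the 10 was called. The 10 markers of monocytes and neutrophils summed to between 8.37 and 158 nRPKM in PS2APP;Trem2wt and between 2.64 and 33.9 nRPKM in PS2APP;Trem2ko mice. None of the 6 that were tested was called, and 2 had an unadjusted p of 0.05 or less, both lower. Ccr2, S100a8, S100a9 and Camp were detected in every mouse, while the neutrophil marker Ly6g had no count in 3 PS2APP;Trem2wt and 4 PS2APP;Trem2ko mice. S100a8, S100a9 and Camp reached 54.4, 62.7 and 31.8 nRPKM in PS2APP;Trem2wt and 7.6, 9.66 and 4.78 nRPKM in PS2APP;Trem2ko mice. Their log2 fold changes were -1.60, -1.60 and -1.61 in edgeR, and of the 6 tested markers 4 were negative and 2 positive. The sum of 158 was that of PS2APP;Trem2wt replicate 2, without which the log2 fold change of Bhlhe40 was -2.54 (adjusted p = 0.000499 in edgeR). The part of the other differences between mice in the Bhlhe40 result was not tested.

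**Figure D1:**
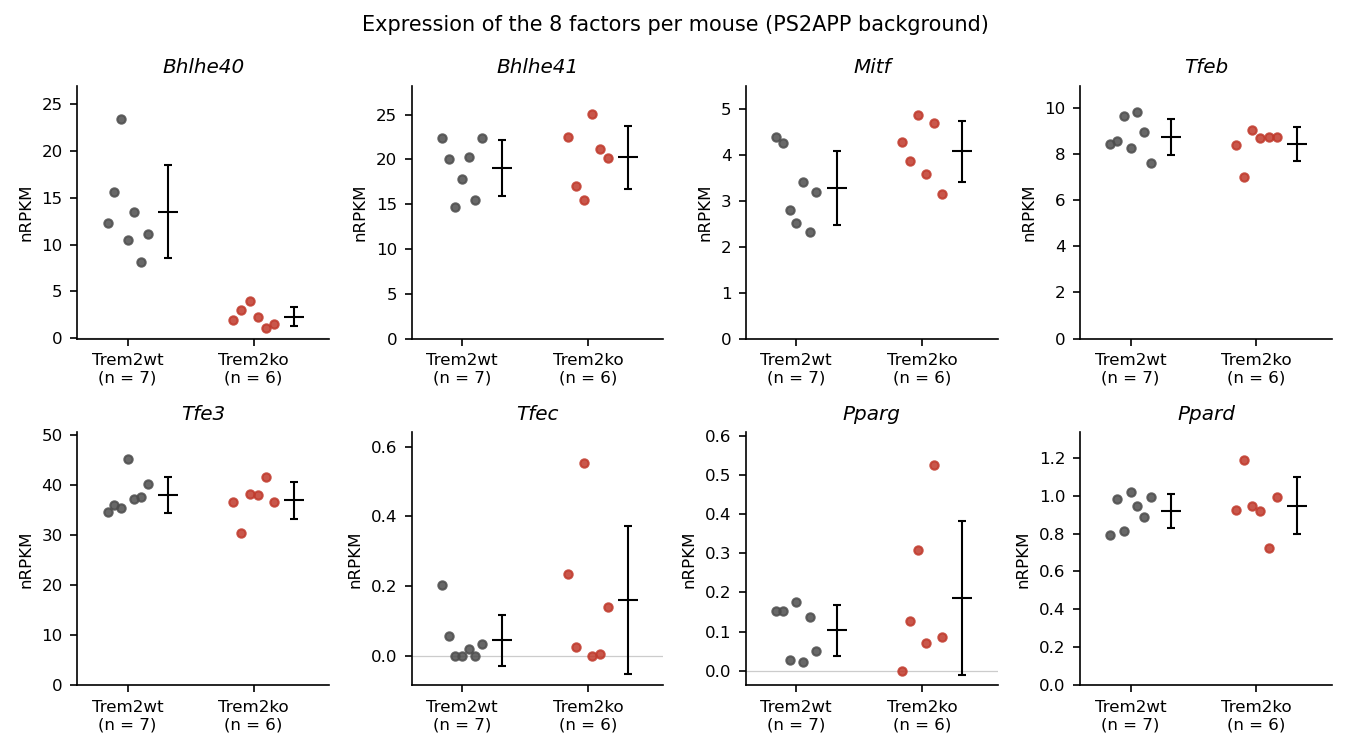
Expression of the 8 factors in each mouse, in nRPKM on linear axes that differ between panels. Points are mice (grey, 7 PS2APP;Trem2wt; red, 6 PS2APP;Trem2ko), and the black mark and bar are the mean ± SD. The Bhlhe40 points do not overlap between genotypes (8.16 to 23.4 against 1.06 to 3.91), and those of the other 7 genes do.

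Bhlhe41 (ENSMUSG00000030256, chromosome 6, 145858243 to 145865558 on the minus strand) had a lowest, median and highest nRPKM of 14.7, 20 and 22.4 in PS2APP;Trem2wt mice. In PS2APP;Trem2ko mice they were 15.5, 20.6 and 25.1. The ranges overlapped, with 2 PS2APP;Trem2ko mice above all PS2APP;Trem2wt mice. The log2 fold change was 0.09 (SE 0.12, 95% interval -0.18 to 0.35, adjusted p = 0.804 in edgeR), so that a 1.28-fold increase or a 1.13-fold decrease lay within the interval. Of the 50-base words of the Bhlhe41 transcripts, 16.4% also occur in another gene, most of them in Gm43909, an unconfirmed transcript that lies within Bhlhe41 on the opposite strand. Gm43909 had 68 to 450 counts per mouse against 4182 to 25125 for Bhlhe41. For Bhlhe40 the shared words came to 1.53%, and 0610040F04Rik, which overlaps its first bases on the opposite strand, had at most 1 count in a mouse.

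To compare the paralogs directly, the ratio of their transcripts was computed within each mouse. Bhlhe40 had 0.684 times the nRPKM of Bhlhe41 in PS2APP;Trem2wt mice (geometric mean, range 0.495 to 1.58) and 0.104 times in PS2APP;Trem2ko mice (range 0.0505 to 0.252). On the log2 scale the ratio was -0.55 ± 0.58 (SD, n = 7) against -3.26 ± 0.85 (SD, n = 6). The 2 groups of ratios did not overlap, and in PS2APP;Trem2wt replicate 3 alone Bhlhe40 exceeded Bhlhe41. The difference of -2.71 had p = 0.000583 by exact two-sided permutation of the mice, the smallest p that the 1716 splits can give, and 0.00233 adjusted over the 4 ratios that were computed.

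The MiT/TFE genes kept their order in both genotypes, with Tfe3 highest, then Tfeb, Mitf and Tfec. Tfe3 (ENSMUSG00000000134, chromosome X, 7762560 to 7775202 on the plus strand), which acts largely in parallel with TFEB, had the highest nRPKM of all 8 members. Its lowest, median and highest values were 34.6, 37.2 and 45.1 in PS2APP;Trem2wt and 30.3, 37.2 and 41.5 in PS2APP;Trem2ko mice. The genotypes overlapped almost wholly, and the log2 fold change was -0.05 (SE 0.08, 95% interval -0.22 to 0.13, adjusted p = 0.846 in edgeR).

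Tfeb (ENSMUSG00000023990, chromosome 17, 47737030 to 47792419 on the plus strand), the best known activator of lysosome genes, ranged from 7.59 to 9.81 nRPKM (median 8.54) in PS2APP;Trem2wt and from 7 to 9.04 nRPKM (median 8.71) in PS2APP;Trem2ko mice. Only PS2APP;Trem2ko replicate 2 lay below all PS2APP;Trem2wt mice. The log2 fold change was -0.05 (SE 0.08, 95% interval -0.22 to 0.11, adjusted p = 0.797 in edgeR), and decreases beyond 1.16-fold were outside the interval. Tfeb ends 554 kb before Trem2 on the same chromosome, and the strain of origin of the sequence around the allele was not examined. Of 30 tested genes within 1 Mb of Trem2, 4 were called, with log2 fold changes of 4.73 for Treml1, -1.77 for B430306N03Rik, -1.55 for Treml2 and -0.74 for Nfya (adjusted p of 1.0e-06, 0.000963, 0.018 and 0.0319 in edgeR). That is 3 lower and 1 higher, where 1.53% and 0.503% of all tested genes were called. Treml1 lies next to the cassette inserted at Trem2, and its value is not read here as an effect of losing the receptor.

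Mitf (ENSMUSG00000035158, chromosome 6, 97807052 to 98021349 on the plus strand), the melanocyte and osteoclast factor, had nRPKM values of 4.39, 4.26, 2.8, 2.53, 3.42, 2.33 and 3.2 in PS2APP;Trem2wt mice. In PS2APP;Trem2ko mice they were 4.29, 3.88, 4.88, 3.58, 4.71 and 3.16. The groups overlapped, with 2 PS2APP;Trem2ko mice above all PS2APP;Trem2wt mice. The difference of 0.32 on the log2 scale (SE 0.15, 95% interval -0.0049 to 0.64) had an unadjusted p of 0.0532 and an adjusted p of 0.346 in edgeR, and adjusted values lay between 0.2 and 0.536 over all alternatives. The log2 ratio of Mitf to Tfe3 was -3.57 ± 0.44 (SD, n = 7) against -3.18 ± 0.23 (SD, n = 6), or 0.38 higher (p = 0.0798 by exact two-sided permutation, 0.16 adjusted over 4 ratios). In the same exact test it reached an unadjusted p of 0.026 without PS2APP;Trem2wt replicate 1 and 0.039 without PS2APP;Trem2wt replicate 2, the 2 mice of that group with the most Mitf. The 6 melanocyte markers summed to no more than 0.536 nRPKM in any mouse.

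Tfec (ENSMUSG00000029553, chromosome 6, 16833373 to 16898441 on the minus strand), a family member found mainly in macrophages, had no count in 3 PS2APP;Trem2wt mice and 1 PS2APP;Trem2ko mouse and 75 counts at most. Its nRPKM was 0.202, 0.0581, 0, 0, 0.0199, 0 and 0.0346 in PS2APP;Trem2wt and 0.235, 0.0248, 0.552, 0, 0.00673 and 0.14 in PS2APP;Trem2ko mice. The 2 highest mice lacked Trem2, but the ranges overlapped and the gene did not pass the filter on low counts. A difference was not detectable at this depth, where 3 counts were the limit set for detection. In the fits without a filter its log2 fold change was 1.82 with edgeR and 0.60 with limma on log2(nRPKM + 0.1), with adjusted p of 0.46 and 0.742. The log2 ratio of Tfec to Tfe3, with mice at 0 set to 3 counts, differed by 0.67 (two-sided exact permutation test, p = 0.524, 0.699 adjusted over 4 ratios).

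Ppard (ENSMUSG00000002250, chromosome 17, 28232700 to 28301474 on the plus strand), which is broadly expressed and drives fatty acid oxidation, ranged from 0.791 to 1.02 nRPKM (median 0.946) in PS2APP;Trem2wt and from 0.723 to 1.19 nRPKM (median 0.934) in PS2APP;Trem2ko mice. The PS2APP;Trem2ko range enclosed the other, and the log2 fold change was 0.04 (SE 0.13, 95% interval -0.25 to 0.33, adjusted p = 0.927 in edgeR). Pparg (ENSMUSG00000000440, chromosome 6, 115360951 to 115490399 on the plus strand), the adipocyte and alveolar macrophage factor, was much lower, with 3 to 19 counts per PS2APP;Trem2wt mouse. Its nRPKM ranged from 0.0225 to 0.176 (median 0.137) in PS2APP;Trem2wt and from 0 to 0.526 (median 0.106) in PS2APP;Trem2ko mice. The PS2APP;Trem2ko male held 208 counts, and PS2APP;Trem2ko replicate 1, the deepest library, none. The estimate of 0.92 on the log2 scale (SE 0.81, 95% interval -0.81 to 2.64, adjusted p = 0.651 in edgeR) was 0.22 without that male, and with voom+limma it was -0.35, so that no direction can be read. The log2 ratio of Pparg to Ppard differed by 0.29 (two-sided exact permutation test, p = 0.778).

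**Figure D2:**
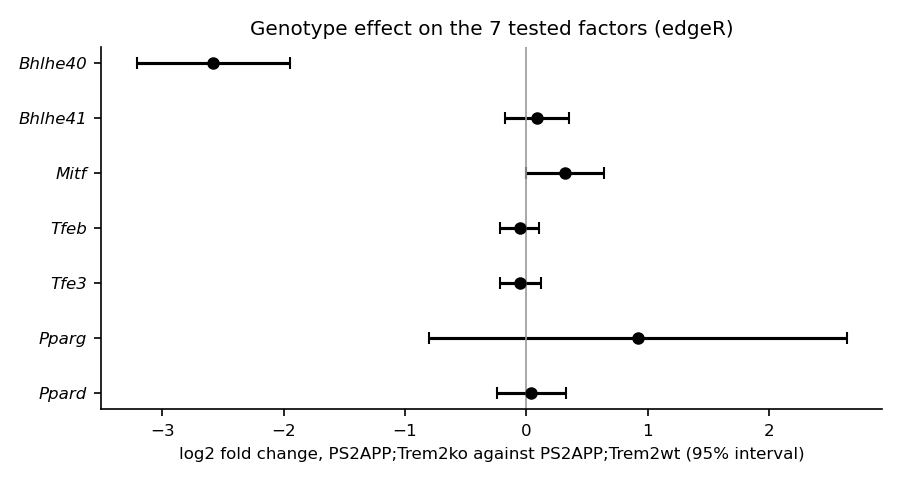
Log2 fold change of the 7 tested factors, PS2APP;Trem2ko against PS2APP;Trem2wt, from edgeR, with bars for the 95% interval. Bhlhe40 lies at -2.58, and the intervals of the other 6 genes include 0. Tfec is absent because it did not pass the filter.

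Set in order of mean nRPKM in PS2APP;Trem2wt cells, the members ran Tfe3 (38), Bhlhe41 (19), Bhlhe40 (13.5), Tfeb (8.74), Mitf (3.28), Ppard (0.92), Pparg (0.103) and Tfec (0.0449). Bhlhe40 overlapped in mean ± SD with both its neighbours, Bhlhe41 above and Tfeb below, and Pparg with Tfec, while the remaining neighbours were apart. In PS2APP;Trem2ko cells the order was Tfe3 (36.9), Bhlhe41 (20.2), Tfeb (8.43), Mitf (4.08), Bhlhe40 (2.28), Ppard (0.949), Pparg (0.186) and Tfec (0.16). Bhlhe40 had moved from the third to the fifth place, below Tfeb and Mitf, and the order of the other 7 was the same. Its mean ± SD was apart from that of Mitf above and Ppard below, although the ranges of single mice overlapped with both.

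**Figure D3:**
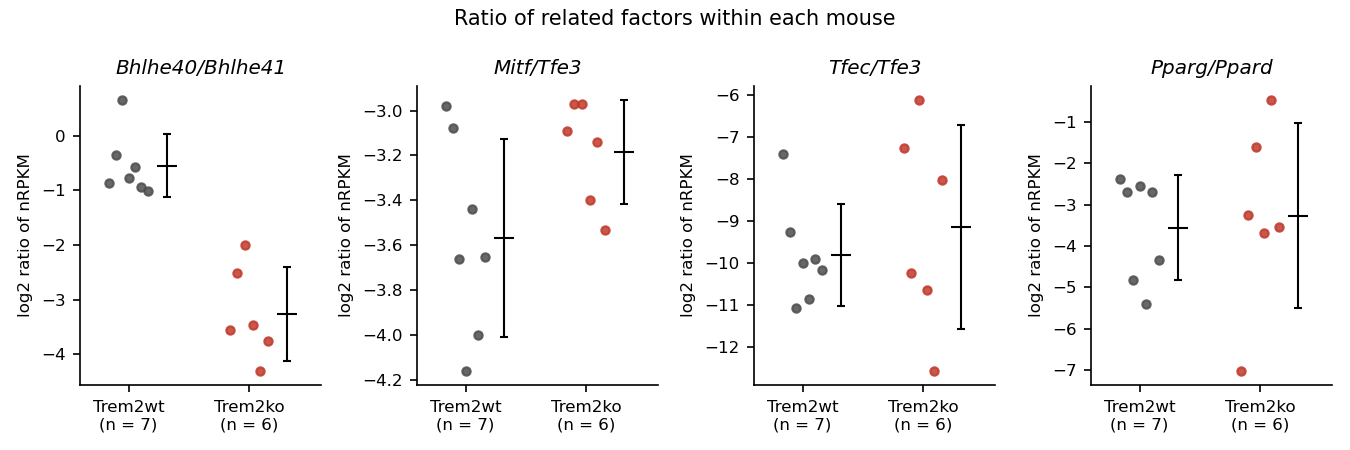
Log2 ratio of the nRPKM of related factors within each mouse, with points for mice and the mean ± SD in black, on axes that differ between panels. Mice with no count were set to the value of 3 counts. The genotypes do not overlap for Bhlhe40/Bhlhe41 (-1.01 to 0.66 against -4.31 to -1.99) and overlap for the other 3 ratios.

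Variation between mice of the same genotype was used to find the genes whose pattern was most like that of each member. Over the 13 mice and 11015 tested genes with a mean nRPKM of 1 or more, deviations of log2 CPM from the genotype mean were correlated with those of the member. The highest Pearson r for Bhlhe40 were 0.91 for Axl, a receptor that binds dying cells, and 0.91 for Mamdc2 (Spearman's rho 0.90 and 0.86). Without the 2 mice farthest from the median of Bhlhe40 they were 0.86 and 0.80. These values share libraries and depth and were the highest over all these genes, so they are given as a description only. Axl and Mamdc2 were also called lower between genotypes, with log2 fold changes of -1.28 and -4.77 (adjusted p = 0.0473 and 3.3e-06 in edgeR). The leading gene was Ccdc162 for Bhlhe41 (r = 0.90), Gm45820 for Mitf (0.90), Mtdh for Tfeb (0.82), Galnt4 for Tfe3 (0.96), Mplkip for Pparg (0.93) and Bclaf1 for Ppard (0.89), none of which was called. For Tfeb the value for Mtdh was 0.47 without the 2 farthest mice and so rested on them. Between the members themselves the correlation of Bhlhe40 was -0.40 with Bhlhe41, 0.24 with Mitf, 0.06 with Tfeb, -0.49 with Tfe3, -0.18 with Pparg and 0.30 with Ppard.

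The genes upstream and downstream of the members were read from 10 lists written from knowledge of the pathways, with earlier results of these data known. Of 230 distinct tested genes in them, 13 were called lower and 2 higher, 5.65% and 0.87% beside 1.53% and 0.503% over all genes, and their median log2 fold change was -0.02. Many of these genes have other regulators, so a count over a list does not measure the activity of a factor. The shares called in the lists may also reflect how the genes were chosen, and they are given as a description only.

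Among 29 genes that control the location and activity of the MiT/TFE proteins, such as the Rag GTPases, Ragulator and calcineurin, 0 were called lower and 1 higher, with a median log2 fold change of 0.00. The gene called was Flcn, which encodes folliculin, the protein that lets mTORC1 hold TFEB and TFE3 in the cytoplasm. Its nRPKM ranged from 50.5 to 61.8 (median 57.1) in PS2APP;Trem2wt and from 67.9 to 76.4 (median 72.5) in PS2APP;Trem2ko mice. The ranges did not overlap, and Flcn rose by 0.36 on the log2 scale (SE 0.06, adjusted p = 0.00748 in edgeR). It was called in all 13 fits that left out a mouse and under all 10 alternatives.

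The lysosome and autophagy genes of the CLEAR network, the set that TFEB and TFE3 switch on, were nearly level. Of 46 tested genes 2 were called lower and 0 higher, and the median log2 fold change was -0.04. Gusb, a lysosomal glucuronidase, had 178 ± 26.2 (SD, n = 7) against 138 ± 7.88 (SD, n = 6) nRPKM and fell by 0.37 on the log2 scale (SE 0.09, adjusted p = 0.0354 in edgeR), but its call held in 4 of the 13 fits that left out a mouse. Atp6v0d2, a subunit of the proton pump found in osteoclasts and macrophages, ranged from 3.27 to 10.2 nRPKM in PS2APP;Trem2wt and from 0.00437 to 0.478 nRPKM in PS2APP;Trem2ko mice, with no overlap. It fell by 4.83 on the log2 scale (SE 0.63, adjusted p = 0.000478 in edgeR).

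Of 16 tested osteoclast-type genes linked to Mitf and the TFE factors, 3 were called lower and 0 higher, with a median log2 fold change of -0.15. They were Atp6v0d2, Dcstamp, which is needed for cell fusion (log2 fold change -5.69, SE 0.55, adjusted p = 3.3e-05 in edgeR), and Gpnmb, a lysosomal glycoprotein that MITF activates. Gpnmb ranged from 36.3 to 113 nRPKM in PS2APP;Trem2wt and from 2 to 11 nRPKM in PS2APP;Trem2ko mice, without overlap (log2 fold change -3.36, SE 0.47, adjusted p = 0.000914 in edgeR). The osteoclast enzyme gene Acp5 was barely expressed, at 0.284 ± 0.215 against 0.17 ± 0.166 nRPKM (SD, n = 7 and 6, log2 fold change -0.75, adjusted p = 0.673 in edgeR), and Ctsk was under the filter. Other genes of the list had higher levels and were not called in edgeR. Among them, Car2 had a mean of 2.14 against 2.12, Mmp14 of 12.6 against 8.54 and Tcirg1 of 54.5 against 68.3 nRPKM (PS2APP;Trem2wt against PS2APP;Trem2ko). Beside the 3 called genes, Mitf, Tfeb and Tfe3 themselves were not called.

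**Figure D4:**
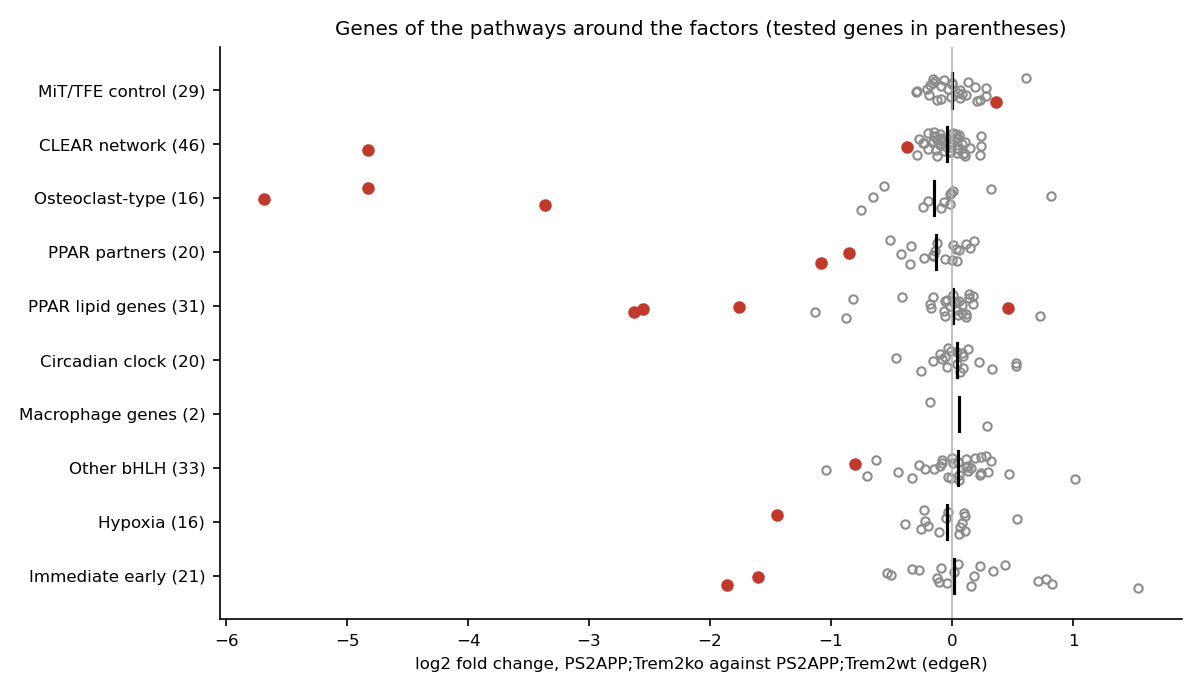
Log2 fold change (edgeR, PS2APP;Trem2ko against PS2APP;Trem2wt) of the tested genes in the 10 pathway lists, with their number in parentheses. Red points are genes called at an adjusted p of 0.05 or less, open points the others, and black bars the median of the list. The medians lie between -0.15 and 0.05, and the genes below -2 are Dcstamp, Atp6v0d2, Gpnmb, Fabp3 and Lpl.

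The partners and cofactors of the PPARs comprised 20 tested genes, of which 2 were called lower and 0 higher (median log2 fold change -0.13). Rxrg, which encodes the heterodimer partner RXRγ, had 6.95 ± 2.91 (SD, n = 7) against 3.3 ± 0.828 (SD, n = 6) nRPKM and fell by 1.08 on the log2 scale (SE 0.24, adjusted p = 0.0316 in edgeR). The ranges of Rxrg overlapped, and its call held in 8 of the 13 fits that left out a mouse, with the adjusted p rising to 0.113 at most over all alternatives.

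Of 31 tested lipid genes of PPAR programmes, 3 were called lower and 1 higher, and the median log2 fold change was 0.01. The 3 were Lpl, which encodes lipoprotein lipase, and Fabp3 and Fabp5, which encode fatty acid carriers. Lpl ranged from 62.7 to 113 nRPKM in PS2APP;Trem2wt and from 9.54 to 19.6 nRPKM in PS2APP;Trem2ko mice (log2 fold change -2.55, SE 0.20, adjusted p = 3.1e-06 in edgeR). Neither it nor Fabp5 overlapped between genotypes, and the log2 fold change of Fabp5 was -1.76 (SE 0.23, adjusted p = 0.000528 in edgeR). Fabp3 had 0.578 ± 0.22 (SD, n = 7) against 0.0946 ± 0.0377 (SD, n = 6) nRPKM (log2 fold change -2.63, adjusted p = 0.00289 in edgeR), and 37.3% of its words are shared with the copy Fabp3-ps1, so that its count is uncertain. Abcg1, a cholesterol exporter that is also a target of the LXR receptors, rose without overlap, with 22.7 ± 1.7 nRPKM (SD, n = 7) against 31.3 ± 3.8 nRPKM (SD, n = 6) (log2 fold change 0.46, SE 0.08, adjusted p = 0.00715 in edgeR). Its relative Abca1 had 47.9 ± 7.3 against 50.8 ± 11.9 nRPKM (SD, n = 7 and 6) and was not called (adjusted p = 0.843 in edgeR).

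**Figure D5:**
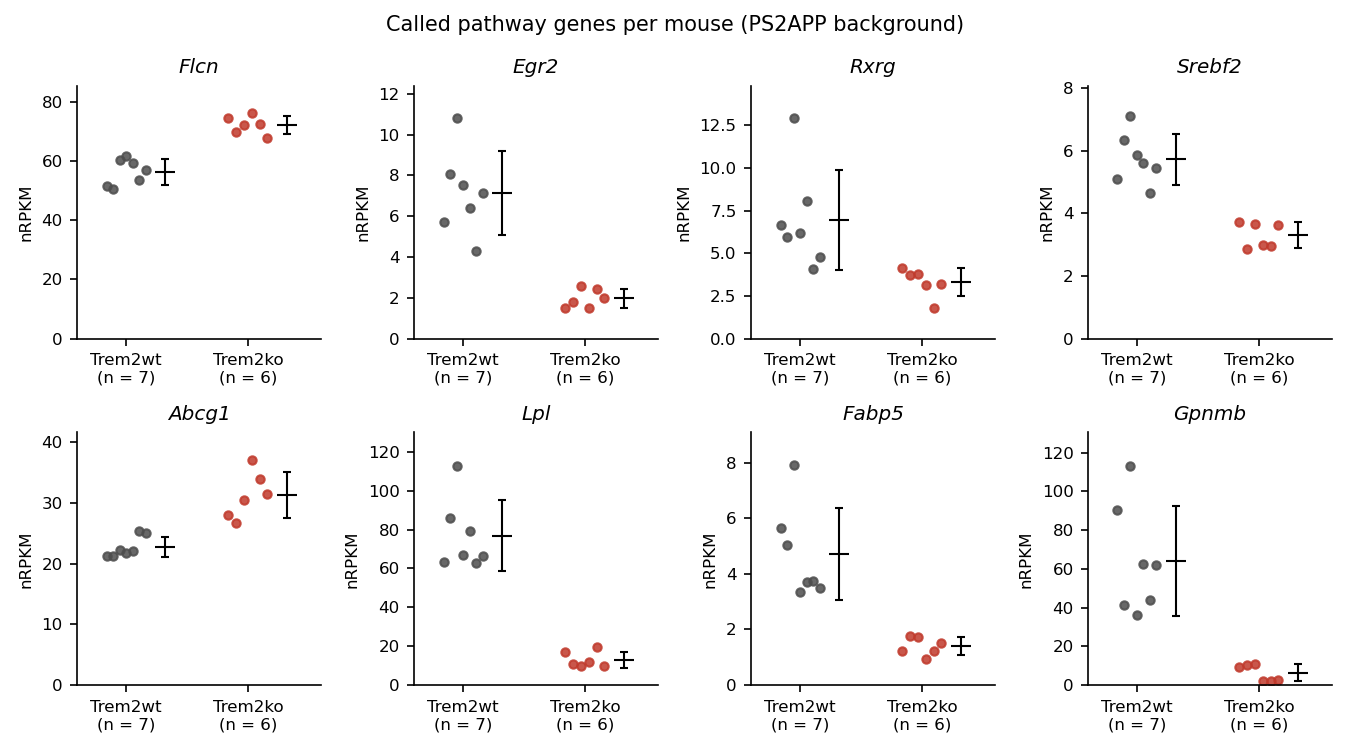
Expression in nRPKM of 8 of the 15 called pathway genes in each mouse, with points for mice (grey, PS2APP;Trem2wt; red, PS2APP;Trem2ko) and the mean ± SD in black, on linear axes from 0. Flcn and Abcg1 are higher and the other 6 lower in PS2APP;Trem2ko mice, and the genotypes overlap for Rxrg alone.

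Bhlhe40 and Bhlhe41 compete with CLOCK and ARNTL for E-boxes of clock genes. None of 20 tested circadian clock genes was called in edgeR, where unadjusted p of 0.05 or less were found for 1 lower and 2 higher genes, with a median log2 fold change of 0.04, and DESeq2 called 0 as well. The smallest p were those of Cry1, a clock repressor, at 2.89 ± 0.361 against 3.64 ± 0.583 nRPKM (SD, n = 7 and 6, log2 fold change 0.33, adjusted p = 0.177 in edgeR), and Nfil3, at 7.27 ± 1.73 against 5.3 ± 1.11 nRPKM (SD, n = 7 and 6, log2 fold change -0.46, adjusted p = 0.208 in edgeR). With sex in the fit, Nfil3 was called lower (log2 fold change -0.52, adjusted p = 0.033 in edgeR).

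Of the macrophage genes that Bhlhe40 and Bhlhe41 repress, Maf had a lowest, median and highest nRPKM of 12.8, 17.1 and 23 in PS2APP;Trem2wt and 17.9, 20.6 and 27.2 in PS2APP;Trem2ko mice. The ranges overlapped, and Maf differed by 0.29 on the log2 scale (SE 0.12, adjusted p = 0.279 in edgeR). Il10 was under the filter, at no more than 0.0478 nRPKM in any mouse.

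Other basic helix-loop-helix factors were also mostly level, with 1 of 33 tested genes called lower, 0 higher and a median log2 fold change of 0.05. The gene called was Srebf2, the activator of cholesterol synthesis, which ranged from 4.64 to 7.12 nRPKM (median 5.6) in PS2APP;Trem2wt and from 2.86 to 3.73 nRPKM (median 3.31) in PS2APP;Trem2ko mice. The ranges did not overlap, and it fell by 0.80 on the log2 scale (SE 0.10, adjusted p = 0.000467 in edgeR). Its paralog Srebf1 had 15.2 ± 3.15 (SD, n = 7) against 13.1 ± 0.717 (SD, n = 6) nRPKM (adjusted p = 0.369 in edgeR).

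Hypoxia and acute stimulation both raise Bhlhe40 in many cells, so genes of these responses were examined beside it. Of 16 tested hypoxia genes 1 was called lower and 0 higher (median log2 fold change -0.04), namely Egln3, an oxygen sensor, at 4.6 ± 1.89 (SD, n = 7) against 1.68 ± 0.585 (SD, n = 6) nRPKM (log2 fold change -1.45, SE 0.27, adjusted p = 0.00992 in edgeR). The ranges of Egln3 overlapped, from 2.25 to 8.21 nRPKM in PS2APP;Trem2wt and from 1 to 2.7 nRPKM in PS2APP;Trem2ko mice. Its call held in all 13 fits that left out a mouse and under all 10 alternatives, with the adjusted p rising to 0.0495 at most. Of 21 immediate early and dissociation response genes 2 were called lower and 0 higher (median log2 fold change 0.02). Egr2 ranged from 4.29 to 10.8 nRPKM in PS2APP;Trem2wt and from 1.49 to 2.6 nRPKM in PS2APP;Trem2ko mice, without overlap (log2 fold change -1.86, SE 0.20, adjusted p = 8.2e-05 in edgeR). Egr3 was low in both groups, at 0.298 ± 0.0919 (SD, n = 7) and 0.0979 ± 0.0247 (SD, n = 6) nRPKM (log2 fold change -1.60, adjusted p = 0.00516 in edgeR). The summed nRPKM of the 21 genes was between 297 and 665 in PS2APP;Trem2wt and between 305 and 797 in PS2APP;Trem2ko mice, and these ranges overlapped. The part of any of these responses in the Bhlhe40 result was not tested.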

How the data were processed

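The authors deposited 1 table per mouse with raw read counts (unique alignments) and nRPKM, which is RPKM rescaled in the manner of DESeq size factors, for 52636 Ensembl genes. They prepared libraries from sorted cells with the SMART-seq v4 kit, which does not mark strand, sequenced single-end reads of 50 bases, discarded adapter, low-quality and rRNA reads, and aligned the rest to GRCm38 with GSNAP. Versions and the strand setting of the counting are not given in the sources used here. Symbols and coordinates are from GENCODE on GRCm38 and were found for 52489 genes.

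Counts (26120961 to 120569609 per mouse, common biological coefficient of variation 0.299) were tested with edgeR 4.0.16 in R 4.3.3, with the filterByExpr filter, TMM scaling, no covariate and all 13 mice. Standard errors were obtained from the F statistic (absolute log2 fold change over its square root). The p-values judge a difference between genotypes against the spread between mice. Values per mouse are nRPKM as deposited. Ratios were compared by exact permutation in Python 3.11.15 (numpy 2.4.6, pandas 2.3.3). The limit of detection was 3 counts, which covers counting error only. Shared reads were estimated from 50-base transcript words that occur in another gene.

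The members and lists were chosen with earlier results of these data known. Named genes are the members, Trem2, called genes of each list (at most 6 per direction, otherwise the 2 with the smallest p), the 3 genes most like each member, and called genes within 1 Mb of Trem2. Abca1, Acp5, Car2, Ctsk, Il10, Mmp14, Srebf1, Tcirg1 and single cell type markers were named after their values were seen. Results of a few genes that the rule names are not reported here. Alternatives were voom+limma (the authors' tool, limma 3.58.1), DESeq2 1.42.0, edgeR with RLE scaling, with sex as a covariate, in females only, without a filter or with one of 10 counts in 6 mice, limma on log2(nRPKM + 0.1) with and without the filter and on log2(nRPKM + 1), a fold cutoff of 2, other units of the ratios, and leaving out each mouse. Counts of this comparison were also simulated over 16773 genes, with dispersions estimated by edgeR. In these, edgeR recovered 66.3% of log2 changes of 1 and 93.2% of log2 changes of 2, with 3 false calls. The values were 63.2% and 91.3% with 2 false calls for voom+limma, and 72.6% and 94.2% with 39 for DESeq2.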

Additional observations from a re-analysis of the deposited data

Results flagged for a closer look

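In 3 of the 24 groups of values checked (8 genes and 4 ratios in each genotype), 1 mouse stood far from the others of its genotype, by Dixon's test at the 95% level, where chance flags about 1 in 20 groups. The log2 ratio of Bhlhe40 to Bhlhe41 was 0.66 in PS2APP;Trem2wt replicate 3, with a gap of 0.611 of the range to the next mouse. Tfeb was lowest at 7 nRPKM in PS2APP;Trem2ko replicate 2 (gap 0.686 of the range). Tfec was highest among PS2APP;Trem2wt mice at 0.202 nRPKM in replicate 1 (gap 0.712 of the range), on 19 counts.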

How the results depend on the processing

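Bhlhe40 was called lower, and no other member was called, in all 13 fits that left out a mouse (log2 fold change of Bhlhe40 -2.79 to -2.39) and under all 10 alternatives to the test, filter, scaling, unit and mice (-2.75 to -2.14), and the fold cutoff of 2 kept the call. Its ratio to Bhlhe41 differed by -2.97 to -2.50 when a mouse was left out (two-sided exact permutation test, p at most 0.00216). Among the list counts, DESeq2 gave 1 lower and 2 higher MiT/TFE control genes (Lamtor4, and Flcn with Stub1) and 2 lower basic helix-loop-helix genes (Srebf2 and Arnt2), and sex as a covariate gave 1 lower clock gene, Nfil3. The other list genes that these alternatives added were all lower: Mmp14 with voom+limma (adjusted p = 0.0419), DESeq2 and limma on log2(nRPKM + 0.1), making 4 osteoclast-type genes, Spi1 in females only, Rxrb and Scd2 with DESeq2, and Atf3 with DESeq2 and in females only. Gusb was lost, leaving 1 lower CLEAR gene, with no filter, in females only and with limma on log2(nRPKM + 0.1) without a filter, and the last left 1 lower PPAR partner. When each mouse was left out, lower CLEAR genes numbered 1 to 2, lower PPAR partners 1 to 3, lower immediate early genes 2 to 3, and higher osteoclast-type genes 0 to 1. DESeq2 gave no adjusted p for Fabp3 (log2 fold change -2.66).

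Uncalled values turned sign for Pparg (-0.35) and Ppard (-0.01) with voom+limma, for Tfe3 (0.01, range -0.08 to 0.01) and Ppard (-0.03, range -0.03 to 0.11) without PS2APP;Trem2ko replicate 2, and for the Pparg to Ppard ratio in females only (-0.25). That ratio differed by -0.27 to 1.04 when a mouse was left out, being negative without PS2APP;Trem2ko replicate 3 (-0.04), PS2APP;Trem2wt replicate 5 (-0.02) or PS2APP;Trem2ko replicate 5 (-0.27). The Mitf to Tfe3 ratio differed by 0.28 to 0.48, with unadjusted p of 0.026 to 0.148 (two-sided exact permutation tests). Except where the number of mice or tested genes changed, the cause was not tested. Over all genes, 262 were called lower and 86 higher, against 526 and 325 with DESeq2, 173 and 79 in females only, 222 and 53 with no filter, 154 and 39 with limma without a filter, and 191 to 284 lower and 42 to 107 higher without 1 mouse. DESeq2 made the most false calls on simulated counts, but these were drawn with dispersions estimated by edgeR. Whether the calls that DESeq2 added here are false was not tested. No paired analysis was possible because replicate numbers here follow the order of the samples, not the labels, and the sources used do not say which mice were processed as pairs. Low counts limit Tfec and Pparg.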
